A study of Drosophila melanogaster with 46 samples.

Results

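Female carcass was compared with male carcass, the carcass being what is left of an adult fly once its gonads have been dissected out, on 4 of the 46 2-colour spotted arrays of a series on sex-biased gene expression in Drosophila melanogaster. The 4 arrays were chosen by their titles, which name both carcasses. Arrays 3a and 3b carried the female carcass in the first channel and the male carcass in the second, and arrays 4a and 4b carried them the other way round. Both carcasses came from the strain y[1]w[67c], kept at 25 C and collected 3 to 5 days after eclosion. Dissection is given by the titles and source names, which call the flies gonadectomized, but not by the longer descriptions of these 4 arrays. Each probe was made from 200 ng of poly(A) mRNA. The comparisons set beside the carcasses used whole females against whole males of the same strain on 4 arrays, and tudor females against tudor males on 2 arrays. Tudor flies are whole tud[1] bw[1]sp[1] flies from mothers of the same genotype, 3 to 5 days old as well, lack a germline but keep a somatic gonad, and come from another stock. Ovary against female carcass and testis against male carcass served to show where each transcript was richer.

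In the soma of flies, sex is set by a splicing cascade that ends in male and female forms of the transcription factor doublesex. The fat body of females makes yolk proteins for export to the ovary, and cells under the cuticle make the hydrocarbons that act as contact pheromones. Females store sperm in spermathecae, whose secretory cells make proteases. Males make seminal proteins in the paired accessory glands, the ejaculatory duct and the ejaculatory bulb. None of these organs is a gonad.

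Values are log2 ratios of female carcass over male carcass, so that a positive value is higher in female carcass, with each array centred on its median. The direction is likely rather than stated, because the labels do not say which channel is the numerator. It was taken from arrays outside the carcass comparison. On the 4 whole-fly arrays the yolk protein genes lay between 1.79 and 5.50 in favour of females, and on the 4 ovary and testis arrays betaTub85D, Mst87F and dj lay between -4.20 and -3.14, in favour of testis. The log base is not stated either and was taken as 2. An element is a printed probe, averaged over its duplicate spots. The carcass arrays measured 11748, 7994, 12264 and 9008 elements (3a, 3b, 4a and 4b) of the 15732 printed. Array 4a stood apart from the other 3. Its SD over elements was 0.65, against 0.40 on 3a, 0.35 on 3b and 0.33 on 4b, and its residuals in the fit were 1.59 times as wide as those of an average array. Across elements, 3a and 3b correlated at r = 0.75 and 4a and 4b at r = 0.54, while the pairs of opposite dye orientation correlated at r between 0.30 and 0.46, with 3a and 4a the lowest. These correlations are over genes of shared RNA and share dye effects within an orientation. The labels do not say whether a and b arrays came from separate extracts, so p-values measure the spread between arrays, which may be technical. That spread was estimated per element over the arrays of the whole series, not from the 4 carcass arrays alone. Each SE uses it, and n gives only the number of carcass arrays. In whole-tissue RNA, fewer cells of a type and less RNA per cell cannot be told apart.

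Of 11690 elements tested, 1169 were called higher in female carcass (10.0% of those tested) and 1016 were called higher in male carcass (8.69%), at a Benjamini-Hochberg adjusted p below 0.05 in limma. These 2 shares are the background for the counts of each gene list. Most of these differences were small. The median absolute log2 ratio of the called elements was 0.44, and 123 elements were at least 2-fold higher in female carcass and 108 in male carcass. All 194 of the called elements past 2-fold that were measured on all 4 arrays had the same sign on all 4. Of all 1631 called elements measured on all 4 arrays, 1258 had the same sign on all 4 and 373 did not. Without array 4a, 433 elements were called higher in female carcass and 369 in male carcass, of 9442 tested. Of the 1169 and 1016 calls, 403 and 347 were among them, and 0 changed direction. Most calls were thus lost without 4a. The list counts given without 4a are to be read beside 433 and 369 of all 9442 elements, not beside 10.0% and 8.69%. As a background, 2 arrays carried RNA of mixed-sex whole flies in both channels. There, 15 of 7785 elements measured on both were past 2-fold in the same direction on both, and none of the 30 genes of largest carcass bias described here was beyond 0.32 in absolute size on either array. On the carcass arrays, 79 of the 7149 elements measured on all 4 were past 2-fold in the same direction on all 4. This rule asks for 4 arrays in both dye orientations and the mixed-sex rule for 2 arrays, so the counts are not alike in strictness.

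**Figure D1:**
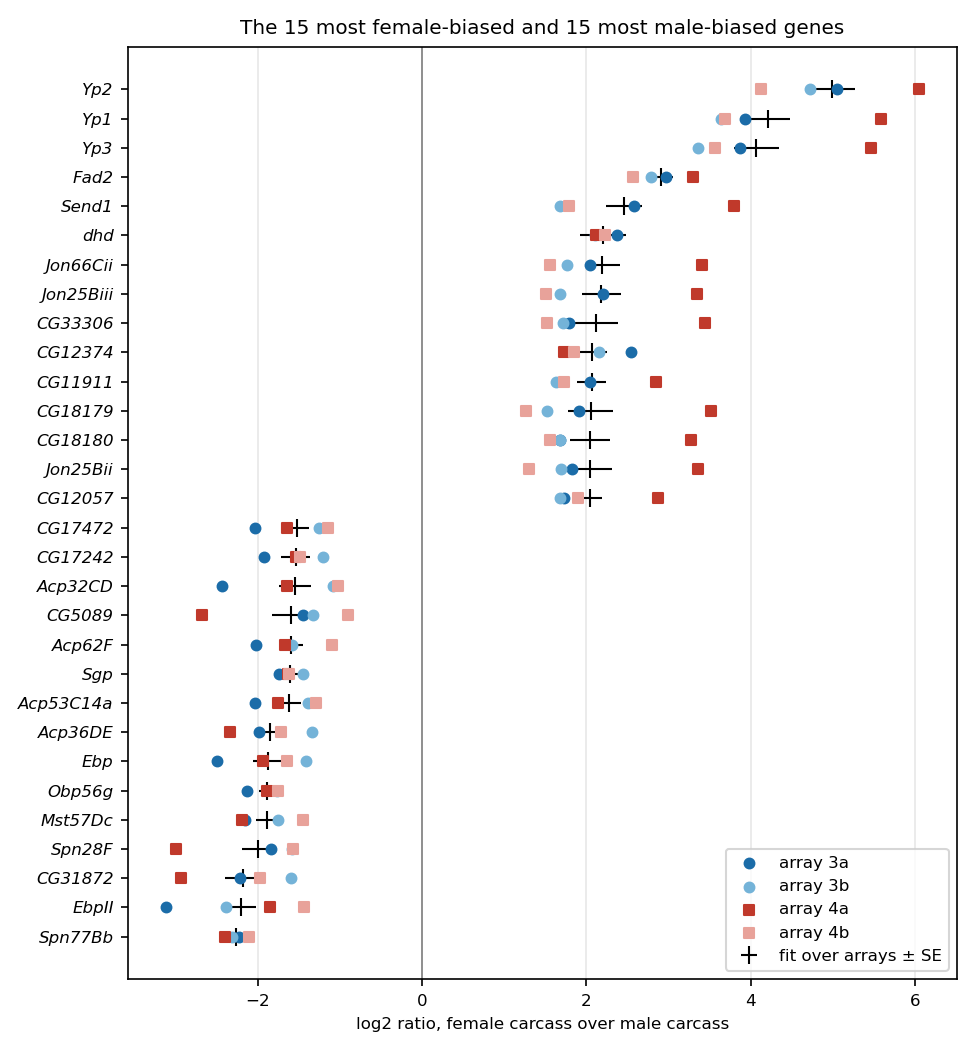
The 15 genes with the highest and the 15 with the lowest carcass log2 ratio (female carcass over male carcass, x axis), with each of the 4 arrays as a point and the fit over arrays ± SE as a black bar. Circles are arrays with female carcass in channel 1, squares arrays with male carcass in channel 1. No point of the upper 15 genes lies below 1.26 and no point of the lower 15 above -0.91, and array 4a gives the highest value of 13 of the upper 15.

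The yolk protein genes had the largest female bias on the arrays. Yp2 read 5.05, 4.72, 6.05 and 4.13 on arrays 3a, 3b, 4a and 4b, Yp1 read 3.93, 3.64, 5.59 and 3.68, and Yp3 read 3.87, 3.36, 5.47 and 3.57. All 3 lie on the X. No array came near 0 for any of them, and 4a was the highest for each. The fitted ratios were 4.99 ± 0.29 for Yp2 (SE, n = 4 arrays, limma adjusted p 2.66e-13), 4.21 ± 0.27 for Yp1 and 4.07 ± 0.27 for Yp3, or 31.7-fold, 18.5-fold and 16.8-fold. Without 4a they were 4.59, 3.75 and 3.64. The dissected ovary had less of each than the female carcass (log2 -2.32, -2.44 and -2.39). The 3 genes are related in sequence, so that spotted probes may share signal between them.

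Among named genes, a pheromone enzyme gene came next in size. Fad2, the desaturase that makes female-specific hydrocarbons with several double bonds, read 2.97, 2.79, 3.30 and 2.56 on the 4 arrays (2.90 ± 0.15, n = 4, adjusted p 5.3e-16). The female elongase gene eloF read 1.13, 1.23 and 1.43 on the 3 arrays that measured it (1.25 ± 0.11, adjusted p 2.36e-06). Of 9 tested genes for hydrocarbon synthesis, 3 were called higher in female carcass (33.3%, beside 10.0% of all elements) and 2 in male carcass (22.2%, beside 8.69%). The median of the 9 was -0.06 against 0.002 over all elements. FASN1, a fatty acid synthase, was the third, at 0.51 ± 0.12, but its arrays split by orientation, with 1.15 and 1.09 on 3a and 3b against -0.27 and 0.07 on 4a and 4b. The 2 that were higher in male carcass were the elongase genes Elo68beta (-0.59 ± 0.11) and bond (-0.44 ± 0.09).

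The spermathecal secretory genes that could be tested, 4 of the 6 listed, were higher in female carcass. All 4 were called, beside 10.0% of all elements, with a median of 1.36. All 4 were also called without 4a, where 433 of all 9442 elements were called higher. Send1, a serine endopeptidase of the spermatheca, read 2.57, 1.68, 3.79 and 1.78 (2.46 ± 0.22, adjusted p 2.65e-09), and CG17239 read 1.56, 1.12, 2.07 and 1.5 (1.56 ± 0.12). CG32277 had 1.16 ± 0.11 over 3 arrays. CG32834 was the weakest, at 0.42 ± 0.08, and read 0.02 on 3b. Ovary had less than female carcass of all 5 list members measured there (median -0.75).

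Of the 5 tested genes of the head fat body list, 2 were called higher in female carcass and 2 in male carcass. These are 40.0% each, beside 10.0% and 8.69% of all elements. The list was chosen with earlier results of these data known, and the RNA is of the whole carcass, so that tissues are not resolved. The gene fit read 1.85, 1.41, 2.67 and 1.67 (1.90 ± 0.18, n = 4, adjusted p 4e-09) and the odorant binding protein gene Obp99a read 1.45, 1.42, 2.19 and 1.56 (1.65 ± 0.11, adjusted p 1.23e-12), both well above 0 on every array. Cyp4d21, a cytochrome P450 gene, was lower in female carcass, with -1.70, -1.17 and -1.01 on 3 arrays (-1.27 ± 0.16, adjusted p 1.12e-05), as was sxe2, a lipase gene, with -0.93, -0.80, -0.75 and -0.81 (-0.82 ± 0.13). Obp99b, at -0.31, was not called. The bias of Obp99a could not be seen in whole flies, where its ratio was 0.01, and the difference between carcass and whole flies was 1.64 (limma adjusted p 5.59e-09). In tudor flies the ratio of Obp99a was 1.80. Obp99a was at 1.27 in testis over male carcass and at -1.48 in ovary over female carcass.

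Digestive protease genes of the midgut were higher in female carcass. All 25 tested Jonah and trypsin protease genes were called, beside 10.0% of all elements, with a median of 1.53 and a range of 0.32 to 2.19. Jon66Cii, a midgut serine protease gene, read 2.04, 1.76, 3.40 and 1.56 (2.19 ± 0.21, adjusted p 1.89e-09). Jon25Biii had 2.18 ± 0.24, Jon25Bii 2.04 ± 0.27 and Jon99Fi 2.00 ± 0.17. The list's median was 1.53 on 3a, 1.42 on 3b, 2.02 on 4a and 1.14 on 4b, so that every array showed the bias and 4a showed it most. Without 4a, 22 of the 25 were called and the median was 1.38. Many of these genes are close relatives in clusters, and probes may share signal, so that the 25 are not 25 separate measurements. The 3 tested lysozyme genes, which act in the gut as well, behaved alike, with LysX at 1.93 ± 0.24, LysE at 1.75 ± 0.21 and LysS at 1.65 ± 0.23. Carbohydrases were not part of this pattern. Of 10 tested, 1 was called higher in female carcass and 2 in male carcass. The called amylase-related gene Amyrel read 1.72 on 4a and between 0.10 and 0.19 on the other arrays, and the maltase genes Mal-A8 (-0.55 ± 0.17) and Mal-A7 (-0.54 ± 0.16) were positive on 4a and negative on the other 3. The median of the carbohydrases was 0.15 with 4a and -0.32 without it, where 4 of 10 were called lower in female carcass and Amyrel was not called (adjusted p 0.657).

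Several genes among the 15 most female-biased carry only a CG number in the annotation used. CG12374 had 2.07 ± 0.19, with 2.54, 2.15, 1.72 and 1.85 on the arrays, and CG11911 had 2.06 ± 0.18. CG12057, on the X, had 2.04 ± 0.14 (adjusted p 1.49e-12). CG33306 (2.11 ± 0.27), CG18179 (2.05 ± 0.28) and CG18180 (2.04 ± 0.25) had the profile of the proteases, with values between 1.26 and 1.91 on 3 arrays and 3.28 or more on 4a. All 6 were lower in ovary than in female carcass, by log2 ratios between -4.26 and -2.47.

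**Figure D2:**
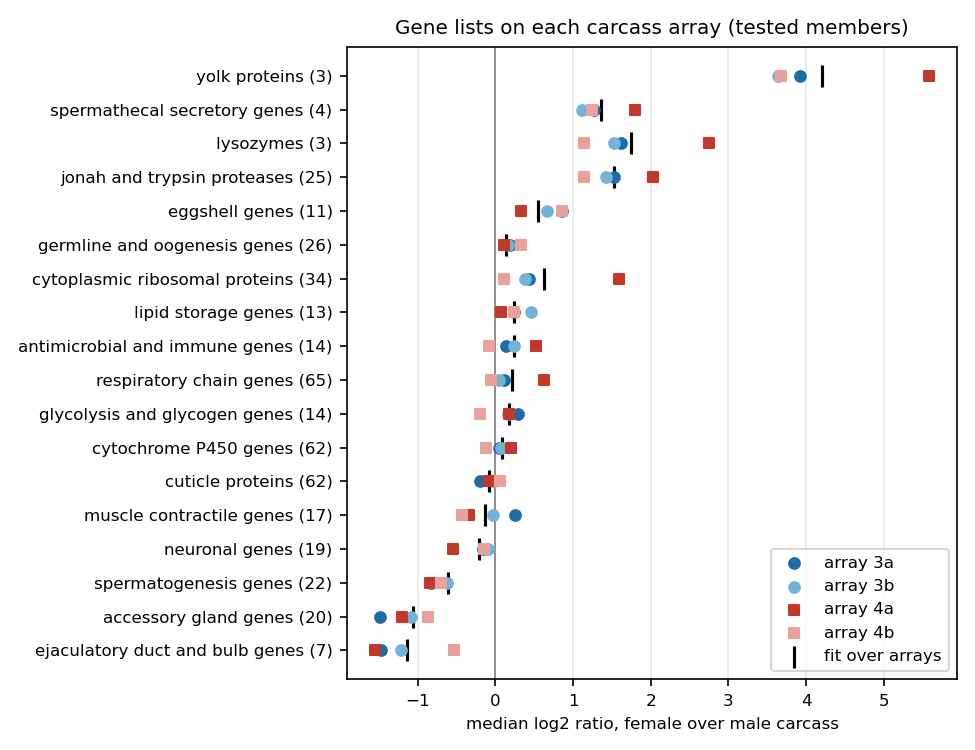
Median log2 ratio (female carcass over male carcass, x axis) of the tested members of 18 gene lists on each of the 4 arrays, with the median of the fitted ratios as a black bar and the number of tested members in brackets. The yolk, spermathecal, lysozyme and protease lists are at 1.12 or above on every array, the accessory gland list lies at -0.87 or lower on every array, and the cytoplasmic ribosomal proteins are at 1.60 on array 4a against 0.11 to 0.43 on the others.

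Genes of the seminal fluid and the male ducts held most of the lowest ratios. All 20 tested accessory gland genes had a negative ratio, and 19 of them were called lower in female carcass, beside 8.69% of all elements, with a median of -1.07. Mst57Dc, which encodes an accessory gland peptide, read -2.16, -1.76, -2.19 and -1.45 (-1.89 ± 0.13, n = 4, adjusted p 2.09e-12). Acp36DE, a seminal protein needed for sperm storage, read -1.99, -1.34, -2.34 and -1.72 (-1.85 ± 0.19). Acp53C14a had -1.62 ± 0.15, Acp62F, a protease inhibitor gene, -1.60 ± 0.15, and Acp32CD -1.55 ± 0.19. No array was positive for Mst57Dc, Acp36DE, Acp53C14a, Acp62F or Acp32CD. Other members of the list had a positive value on 4a, among them Mst57Db, which read 0.32 there. Mst57Db, at -0.47, was not called. Without 4a, 18 of 19 tested members were called, with a median of -1.13.

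Most tested genes of the ejaculatory duct and bulb were also lower in female carcass. Of 7 tested, 5 were called lower (71.4%, beside 8.69% of all elements) and none higher. The serpin gene Spn77Bb had the lowest ratio among the genes measured on all arrays, with -2.23, -2.31, -2.40 and -2.11 (-2.26 ± 0.16, adjusted p 2.09e-12). EbpII, an ejaculatory bulb protein gene, read -3.12, -2.39, -1.85 and -1.44 (-2.20 ± 0.18), and Ebp, the gene of another bulb protein, read -2.50, -1.41, -1.93 and -1.64 (-1.87 ± 0.19). Spn77Bc, another serpin gene, had -1.14 ± 0.18. Without 4a, 4 of the 7 were called. EbpIII (-0.05) and Spn77Ba (0.11) were not called. Obp56g, an odorant binding protein gene, read -2.14, -1.76, -1.89 and -1.76 and had the smallest error of the 30 leading genes (-1.89 ± 0.10, adjusted p 2.55e-15). The serpin gene Spn28F had -2.0 ± 0.19, CG31872 -2.18 ± 0.22, CG17242 -1.54 ± 0.18 and CG17472 -1.52 ± 0.14. Sgp read -1.75, -1.45, -1.63 and -1.62 (-1.61 ± 0.14).

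The dissections placed these male genes differently. All 21 accessory gland genes measured on the testis arrays had a positive ratio of testis over male carcass, with a median of 0.87, and Acp62F reached 1.65. Spn77Bb (1.18), Spn28F (1.55) and CG31872 (1.55) were also higher in the testis preparation. EbpII (-0.72), Ebp (-0.79), Obp56g (-1.40) and Sgp (-2.29) were lower there than in the male carcass. These arrays may share male carcass RNA with the carcass arrays, which the labels do not say. The values stand beside the sex ratios as a description. Per unit of mRNA, accessory gland transcripts were thus more abundant in the testis preparation than in the male carcass on the same arrays.

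**Figure D3:**
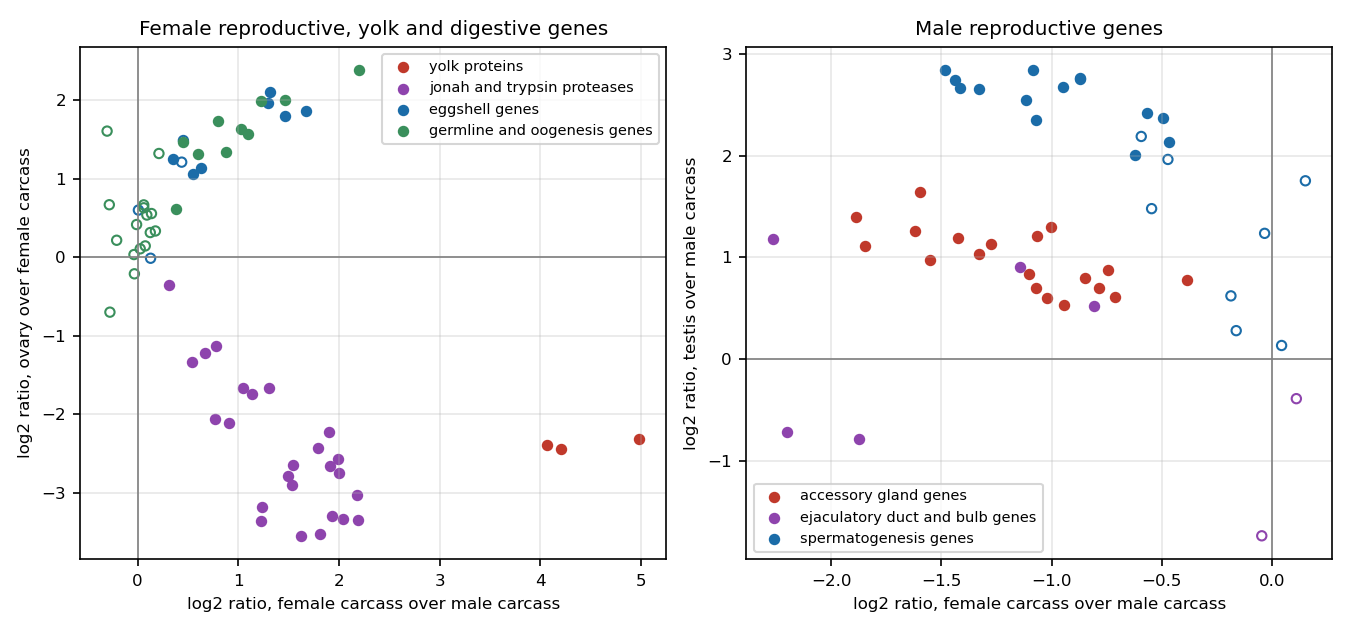
Carcass log2 ratio (female carcass over male carcass, x axes) of tested list members against their ratio of ovary over female carcass (left) or testis over male carcass (right), filled where called in the carcass comparison. Both axes of each panel rest on carcass RNA, which may be shared. Yolk and protease genes lie at negative ovary ratios, called eggshell and germline genes at 0.61 or higher, the accessory gland genes between 0.53 and 1.65 on the testis axis, and the called spermatogenesis genes at 2.00 or higher.

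Some transcripts of the gonads themselves showed a sex bias in these carcasses. Of 22 tested spermatogenesis genes, 14 were called lower in female carcass (63.6%, beside 8.69% of all elements) and none higher, with a median of -0.61. Without 4a, 11 of 15 were. On 3a, 3b, 4a and 4b, w-cup, a gene transcribed late in sperm development, read -1.31, -1.06, -2.51 and -1.06 (-1.48 ± 0.21, adjusted p 1.52e-05). S-Lap8 (-1.44 ± 0.24) and S-Lap7 (-1.42 ± 0.17) encode leucyl aminopeptidases of sperm. The sperm tail genes dj (-1.33 ± 0.29) and Mst87F (-1.08 ± 0.16) and the testis tubulin gene betaTub85D (-1.12 ± 0.13) were called as well. CG5089, among the 15 most male-biased genes, read -1.45, -1.33, -2.68 and -0.91 (-1.59 ± 0.24) and was 2.94 ± 0.35 higher in testis than in male carcass. All 29 spermatogenesis genes measured on the testis arrays were higher in testis (median 2.13). In whole flies, w-cup was at -4.11, S-Lap8 at -3.22 and CG5089 at -4.20. In germlineless tudor flies these 3 genes were at -0.88, -0.65 and -0.34. How much testis or sperm stayed in the male carcass, or whether other cells held these transcripts, was not tested.

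Ovary transcripts were called in part. Of 11 tested eggshell genes, 7 were called higher in female carcass (63.6%, median 0.55), and of 26 tested germline and oogenesis genes, 10 were (38.5%, median 0.13), beside 10.0% of all elements, with none called the other way in either list. Without 4a the counts were 7 of 11 and 7 of 22. Pxt, a chorion peroxidase gene, read 2.52, 1.60, 1.37 and 1.21 (1.67 ± 0.27), the chorion gene dec 1.78, 1.16 and 1.42 on 3 arrays (1.47 ± 0.23), and the vitelline membrane gene Vm32E 1.29, 1.51, 0.85 and 1.60 (1.31 ± 0.20). Among germline genes, dhd, which encodes a thioredoxin of the egg, read 2.37, 2.10, 2.12 and 2.23, with an SD of 0.12 over arrays (2.20 ± 0.28, adjusted p 7.37e-07). Among the genes called with the same sign on all 4 arrays it had the sixth highest ratio and, unlike the 5 before it, was higher in ovary than in female carcass (2.38 ± 0.41). The cell cycle gene gnu had 1.46 ± 0.19, the yolk receptor gene yl 1.22 ± 0.17 and the RNA helicase gene me31B 1.09 ± 0.16. In ovary over female carcass these 3 were at 2.00, 1.99 and 1.57. Array 4a gave the lowest value of yl and me31B, 0.83 and 0.38, while it gave the highest of most leading genes. Of 17 tested genes for DNA replication and the cell cycle, 6 were called higher in female carcass (35.3%, and 3 of 11 without 4a), led by CycB (1.11 ± 0.15) and RnrL (0.98 ± 0.19). The part of residual ovary tissue in these values was not tested.

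Of 13 tested genes of lipid transport and storage, 6 were called higher in female carcass (46.2%, beside 10.0% of all elements) and none lower (median 0.24). Without 4a, 4 of 10 were. The lipophorin gene apolpp, on chromosome 4, read 1.46, 1.41, 0.04 and 0.66 (0.89 ± 0.11, adjusted p 6.83e-07), with the arrays of each orientation together, and rose to 1.11 without 4a. The lipase gene mag had 1.00 ± 0.20, the lipid transfer gene Apoltp 0.42 ± 0.10, and Lip3 0.85 ± 0.26 on 2 arrays that read -0.03 and 1.73. Among antimicrobial and immune genes, 7 of 14 were called higher in female carcass (50.0%) and none lower. The antifungal peptide gene Drs had 1.34 ± 0.23 (1.00 without 4a) and PGRP-SC2, an enzyme that cleaves peptidoglycan, 1.19 ± 0.18. Def (1.47 ± 0.32) and Mtk (0.85 ± 0.26), both antimicrobial peptide genes, were called with 4a, where they read 2.85 and 2.24, and not without it (adjusted p 0.182 and 0.786). Without 4a, 3 of 12 tested were called.

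Most calls of ribosomal protein genes were lost without 4a, as were most calls over all elements. Of 34 tested genes for cytoplasmic ribosomal proteins, 25 were called higher in female carcass (73.5%, beside 10.0% of all elements), with a median of 0.63, against 1 of 33 and a median of 0.30 without 4a. The list's median was 1.60 on 4a and 0.43, 0.38 and 0.11 on 3a, 3b and 4b. RpLP1 read 0.51, 0.56, 1.83 and 0.61 (0.88 ± 0.17) and was the gene that stayed called (adjusted p 0.0309). RpLP2 (0.91 ± 0.22), RpS15Ab (0.87 ± 0.21) and RpS18 (0.83 ± 0.22) did not. In ovary over female carcass, 35 of the 37 members measured there had a positive ratio (median 0.67). The part of residual ovary tissue in the carcass values was not tested. Of 51 mitochondrial ribosomal protein genes, 8 were called higher in female carcass (15.7%). Without 4a, where 433 of all 9442 elements were called higher, 1 of 43 was. That gene, mRpS11, read 1.16, 1.16, 2.54 and 1.25 (1.53 ± 0.21) and had -1.58 in ovary over female carcass, where the other 7 called members lay between -0.03 and 0.60.

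Of 62 tested cuticle protein genes, 13 were called lower in female carcass (21%, beside 8.69% of all elements) and 4 higher (6.45%, beside 10.0%), with a median of -0.09 that was 0.06 on 4b. Cpr100A read -0.77, -0.86, -1.58 and -0.51 (-0.93 ± 0.13, adjusted p 2.36e-06), Cpr62Bc had -0.89 ± 0.11 and Cpr97Eb -0.73 ± 0.10. Pcp (0.83 ± 0.18), Cpr64Ad (0.35 ± 0.12), Cpr66Cb (0.29 ± 0.07) and Cpr62Ba (0.16 ± 0.05) were the 4 that were higher in female carcass. Without 4a, 8 were called lower and 1 higher of 56. Of 19 neuronal genes 6 were called lower in female carcass (31.6%), led by ple, for tyrosine hydroxylase (-0.75 ± 0.14), and 1 of 17 without 4a. Of 17 muscle genes, 2 were called lower (11.8%, near the share of all elements), Obsc (-0.72 ± 0.17) and the flight muscle actin gene Act88F (-0.69 ± 0.18), and 0 of 17 without 4a, where 2 had an unadjusted limma p below 0.05. The list's median was 0.26 on 3a, -0.03 on 3b, -0.34 on 4a and -0.43 on 4b, so that the arrays did not share a sign. All 17 muscle genes were lower in ovary and in testis than in the carcass of the same sex.

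Of 62 cytochrome P450 genes, 5 were called in each direction (8.06% each, beside 10.0% and 8.69% of all elements), and without 4a 0 were called higher in female carcass (3 at an unadjusted limma p below 0.05) and 5 lower, of 51. Cyp313a1 read -1.01, -1.04, -2.21 and -1.16 (-1.35 ± 0.15, adjusted p 9.59e-08) and was also low in testis against male carcass (-3.03). Cyp312a1 had -1.01 ± 0.18. Cyp6a19, at 1.00 ± 0.28 over 3 arrays, was the highest P450 gene and was not called without 4a, where its ratio was 0.92 (adjusted p 0.142). It was also higher in ovary than in female carcass (1.91), and its ratio in whole flies was 2.11. Of 26 glutathione transferase genes, 3 were called higher (11.5%) and 1 lower (3.85%). Without 4a limma called 0 of 23, where 2 were higher and 1 lower at an unadjusted p below 0.05. Of 23 odorant binding protein genes, 5 were called higher (21.7%) and 2 lower (8.70%), and without 4a 1 of 18 was called higher, Obp99a, and 2 lower. Obp56e (0.99 ± 0.21) was not called without 4a, at 0.64 (adjusted p 0.0875), whereas Obp44a read -0.70, -0.71, -0.81 and -0.86 (-0.77 ± 0.13).

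Several groups had few or no calls. None of 15 chemoreceptor genes, 14 genes of glycolysis and glycogen, 8 of the insulin pathway and 5 of dosage compensation was called by limma, where 10.0% and 8.69% of all elements were. At an unadjusted p below 0.05 the counts were 1, 2, 0 and 1. Only 15 of the 79 chemoreceptor genes on the arrays were measured often enough to be tested. Of the glycolysis genes, 12 of 14 had a positive ratio, the highest being Pgk at 0.44. In the sex determination list, doublesex itself (dsx) read 0.09, 0.05, -0.19 and -0.03 (-0.02 ± 0.06, adjusted p 0.857), and tra, measured on 2 arrays, 0.10 ± 0.10. Both are regulated by sex-specific splicing, which a spotted probe for the whole gene may not see. The genes fru (-0.39 ± 0.14) and her (0.34 ± 0.10) were called in opposite directions, with adjusted p of 0.0458 and 0.0322, and neither was called without 4a (adjusted p 0.492 and 0.0982). Of the 12 hormone genes, Hr39 was called (-0.28 ± 0.08), of the 29 proteasome genes Rpn2 (-0.22 ± 0.07), and of the 65 respiratory chain genes 2 higher and 1 lower in female carcass. Without 4a limma called 0 in these 3 lists, with 2, 1 and 0 at an unadjusted p below 0.05. The dosage compensation gene msl-2, whose protein is made in males, had -0.37 ± 0.14 (adjusted p 0.0549).

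None of the placed genes past 2-fold higher in male carcass was X-linked. The elements called past 2-fold stood for 104 genes higher in female carcass and 85 higher in male carcass, of which 103 and 84 could be placed on a chromosome. On the X lay 14 of the 103 female-biased genes and 0 of the 84 male-biased ones, while the X held 1304 of the 7970 placed genes tested (16.4%). Without 4a, 11 X-linked genes were past 2-fold and called higher in female carcass and 0 in male carcass. At any size, 9.97% of X-linked genes were called higher in female carcass and 6.52% in male carcass. The autosomal arms 2L, 2R, 3L and 3R had between 9.84% and 11.7% called higher in female carcass and between 8.22% and 10.2% in male carcass. The median ratio of X-linked genes was 0.01. On chromosome 4, 2 of 51 genes were called higher in female carcass and 8 in male carcass, and 1 and 0 of 44 were without 4a. No test was made of these shares.

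Carcass and whole flies differed in how large the sex ratio was and in which genes carried it. In whole flies, 28.9% of elements were called female-biased and 27.8% male-biased. Of the 1140 female-biased carcass elements tested in both, 585 were also called higher in whole females (51.3% of the carcass calls, 18% of the 3258 whole-fly calls). Of 975 male-biased carcass elements, 637 were called higher in whole males (65.3% and 20.4%), and 90 and 39 elements were called in opposite directions in carcass and whole flies. The carcass ratio minus the whole-fly ratio was tested in the same limma fit. It was called above 0 for 2247 of 11364 elements (19.8%) and below 0 for 2050 (18%). With all arrays scaled to the same spread, the 2 counts together fell to 1000, against 4297 unscaled.

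Of the 15 most female-biased genes, 8 had a higher ratio in carcass than in whole flies by the test of the difference. Over all elements this difference was called above 0 for 19.8% and below 0 for 18%, the background for the counts in this paragraph. The counts are from the unscaled fit, and over all elements the calls fell from 4297 to 1000 with arrays scaled to the same spread. The ratio of Yp3 was 4.07 in carcass and 2.83 in whole flies (difference 1.24 ± 0.38, limma adjusted p 0.0112), that of Fad2 was 2.90 and 2.04 (0.87 ± 0.21, adjusted p 0.00168), and that of Send1 was 2.46 and 1.18 (1.28 ± 0.31, adjusted p 0.00181). For Yp2 (0.96 ± 0.41) and Yp1 (0.70 ± 0.38) the difference did not pass (adjusted p 0.0627 and 0.151), nor did it for CG12374, CG18179, CG18180 and Jon25Bii (adjusted p 0.137, 0.0756, 0.0893 and 0.192). CG12057 differed most surely, with 2.04 in carcass and 0.63 in whole flies (1.41 ± 0.20, adjusted p 2.46e-06). The germline gene dhd ran the other way, with 2.20 in carcass and 3.36 in whole flies (-1.16 ± 0.39, adjusted p 0.0201). Of 25 digestive protease genes, the difference was called above 0 for 21 and below 0 for none. Their median was 1.53 in carcass and 0.54 in whole flies. Of the 15 most male-biased genes, 13 were less male-biased in carcass than in whole flies by the same test, which Ebp and Acp36DE did not pass (adjusted p 0.354 and 0.403). Mst57Dc was at -1.89 in carcass and -3.05 in whole flies (1.16 ± 0.19, adjusted p 1.63e-05), and 13 of 20 accessory gland genes and 4 of 7 duct and bulb genes differed this way. The lipid carrier gene apolpp was at 0.89 in carcass and -0.29 in whole flies (difference 1.18, adjusted p 1.59e-06). The tissue make-up of the RNA and a change within cells cannot be told apart in these differences.

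**Figure D4:**
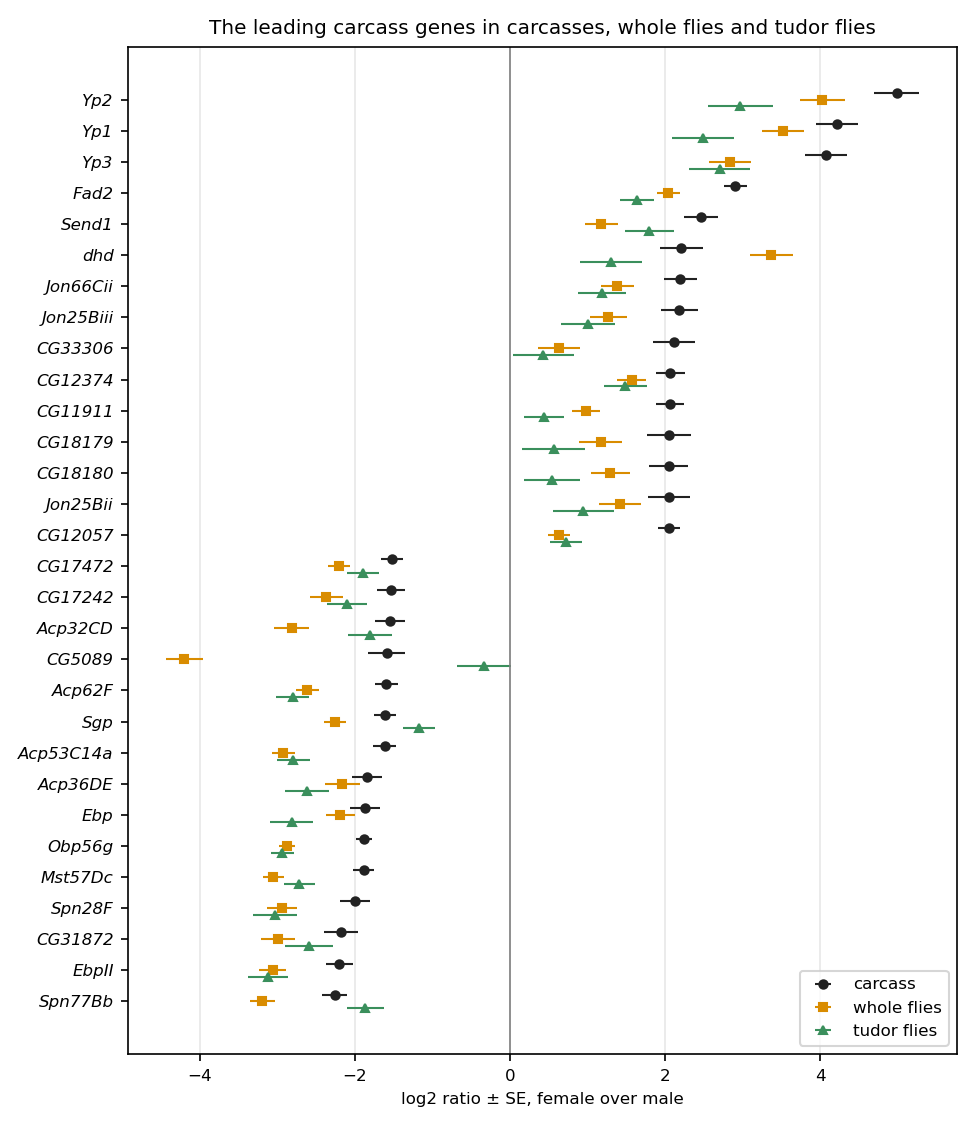
Log2 ratio of female over male ± SE (x axis) of the 30 leading carcass genes in carcasses (4 arrays), whole flies (4 arrays) and tudor flies (2 arrays). The 3 preparations share the sign for every gene shown. The fitted carcass ratio of the female genes other than dhd lies above that in whole flies, for 8 of the 15 by the test. CG5089 is at -1.59 in carcass, -4.20 in whole flies and -0.34 in tudor flies. The genes were picked by their carcass ratio, which favours carcass ratios far from 0.

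Tudor flies gave few calls of their own. With 2 arrays of a single dye orientation, 0.339% of elements were called higher in tudor females and 0.904% in tudor males. Nearly all of them recurred in the carcass. Of 39 elements higher in tudor females and tested in both, 37 were called higher in female carcass (94.9%, or 3.34% of the 1109 carcass calls tested in both). Of 90 higher in tudor males, 77 were called higher in male carcass (85.6%, or 8.35% of 922), and 1 element was called in opposite directions. Among all 10557 elements tested in both, 1109 were called higher in female carcass and 922 in male carcass. Both sets of calls came from the same fit, with each element's spread and dye coefficient in common, so they are not independent. The accessory gland genes had a median of -1.80 in tudor flies, against -1.07 in carcass, and 20 of 22 were called there. The digestive proteases had a median of 0.64, and 2 of 25 were called. Of 85 genes past 2-fold higher in male carcass, 74 were tested in tudor flies, and 34 were called in the same direction. For the 104 genes higher in female carcass, the counts were 99 and 16.

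The difference between the carcass and tudor ratios was called above 0 for 93 of 10512 elements (0.885%) and below 0 for 73 (0.694%), and this count depended heavily on the fit. It was 0 with the carcass and tudor sex arrays fitted alone (1065 of 10426 elements at an unadjusted limma p below 0.05), 40 without array 4a and 1942 with all arrays scaled to the same spread. In the fit reported here, Yp2 was at 4.99 in carcass and 2.97 in tudor flies (difference 2.02 ± 0.41, limma adjusted p 0.00731), Fad2 at 2.90 and 1.63 (1.27 ± 0.21, adjusted p 0.000647) and CG11911 at 2.06 and 0.44 (1.62 ± 0.25, adjusted p 0.000443). Obp56g was at -1.89 in carcass and -2.94 in tudor flies (1.05 ± 0.14, adjusted p 0.00011), and Acp62F at -1.60 and -2.81 (1.21 ± 0.21, adjusted p 0.00151). Tudor flies are whole flies of another stock, so that preparation, stock and the missing germline cannot be told apart in these differences. The genes named here were picked by their carcass ratio, which enters the difference.

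A second printed element gave a check for some genes. Of 229 further tested elements that represent a gene whose main element was called, 187 had the same sign and 82 were themselves called in that direction, while 2 were called in the opposite direction. The calls were fewest when the 4 carcass arrays were fitted without the rest of the series. That fit estimates each element's spread from these arrays alone, and it called 49 elements higher in female carcass and 38 in male carcass, all of which were among the 1169 and 1016.

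**Figure D5:**
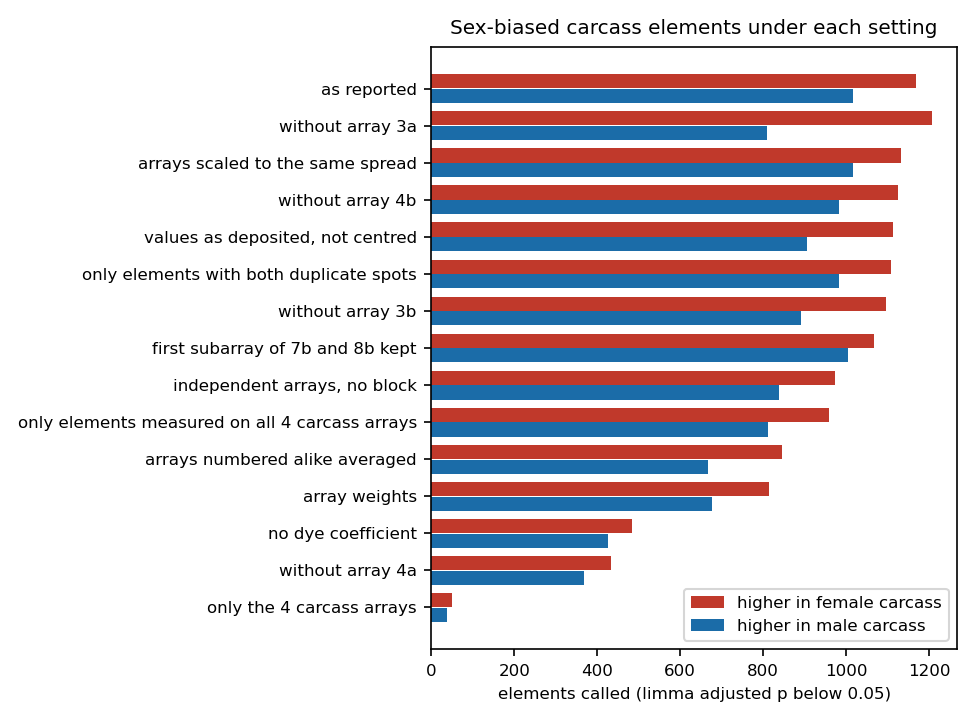
Number of elements called higher in female carcass (red) and in male carcass (blue) at a limma adjusted p below 0.05 (x axis), as reported and under each alternative setting. The counts lie between 483 and 1207 for female carcass in the fits that use the rest of the series and all of 4a, fall to 433 without 4a, and to 49 with only the 4 carcass arrays.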

How the data were processed

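The deposited table holds 1 log ratio per spot and array. Per the labels' protocols, 200 ng of poly(A) mRNA gave each Cy3 (probe 1) or Cy5 (probe 2) probe and arrays were scanned on a GenePix 4000A. How the authors corrected background, normalized and filtered, and the log base, is not given in the sources used here, and the deposited values were taken as log2. If they were natural logs, every fold would be larger and the calls would stand.

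Duplicate spots were averaged. Arrays were turned by label, centred on their median and fitted together in limma 3.58.1 (R 4.3.3), with 1 coefficient per RNA pair, a dye coefficient per element, the hybridisation number as a block (correlation -0.0875) and moderated variances. Elements on at least 2 carcass arrays were tested, with Benjamini-Hochberg adjustment per comparison. On arrays 7b and 8b, 9626 first-subarray values that ran opposite to their repeats were left out. The fit was tested on simulated data.

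The platform table gave 1 gene for 12586 elements, 12219 of which matched RefSeq (Release 6). A gene with several elements was read from its most often measured one. Genes are named if among the 15 highest or 15 lowest called ratios with the same sign on all 4 arrays, among the 4 largest called members of 33 lists, or called against a list's majority. Up to 2 uncalled members of a list are given as values, and the 6 control genes of the direction are named. Members and lists were chosen with earlier results of these data known. Alternatives covered the arrays used, dye, block, averaging, scaling, centring, weights, filters and each array left out. A planned search of promoters was not run.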

Additional observations from a re-analysis of the deposited data

Results flagged for a closer look

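For 10 of the 114 genes named by rule, the value on array 4a stood far from those of the other 3 arrays, and no other array had such a value. Chance alone would flag about 1 in 20 groups of values. The values on 4a were 5.59 for Yp1, 3.44 for CG33306, 3.28 for CG18180, 1.72 for Amyrel, 2.54 for Drs, -2.21 for Cyp313a1, 2.14 for Obp56e, 1.24 for Cpr64Ad, 1.83 for RpLP1 and 2.54 for mRpS11. Each lay farther from 0 than the gene's other 3 values, and apart from Cpr64Ad, at -0.03 on 3a, all 4 values of each gene had 1 sign. The wider spread of 4a over all elements moved with them, and its part in these values was not tested.

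The sex ratio differed between carcass and whole flies for 4297 elements and between carcass and tudor flies for 166, by limma's test of the difference. The genes named here and in the next paragraph were picked by their carcass ratio, which enters both differences. For genes that were more female-biased in carcass than in whole flies, the difference was 1.24 for Yp3, 0.87 for Fad2, 1.28 for Send1, 0.81 for Jon66Cii, 0.91 for Jon25Biii, 1.48 for CG33306, 1.09 for CG11911 and 1.41 for CG12057. For dhd, female-biased in both, it was -1.16, a lower ratio in carcass. Male-biased genes were less so in carcass than in whole flies, by 0.93 for Spn77Bb, 0.86 for EbpII, 0.81 for CG31872, 0.94 for Spn28F, 1.16 for Mst57Dc, 1.00 for Obp56g, 1.31 for Acp53C14a, 0.65 for Sgp, 1.02 for Acp62F, 2.61 for CG5089, 1.27 for Acp32CD, 0.83 for CG17242 and 0.68 for CG17472.

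Against tudor flies, female-biased genes had a higher ratio in carcass by 2.02 for Yp2, 1.72 for Yp1, 1.27 for Fad2, 1.69 for CG33306, 1.62 for CG11911, 1.49 for CG18179, 1.51 for CG18180 and 1.33 for CG12057. Male-biased genes differed by 1.04 for Spn28F, 0.83 for Mst57Dc, 1.05 for Obp56g, 1.18 for Acp53C14a and 1.21 for Acp62F, all less male-biased in carcass, and by -1.26 for CG5089, which was more male-biased in carcass.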

How the results depend on the processing

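The 4 arrays limit the precision, and 4a carries much of the evidence. Leaving out 1 carcass array at a time gave between 433 and 1207 elements higher in female carcass and between 369 and 982 in male carcass, with 4a behind both low counts. The same range was 3071 to 3997 for elements differing between carcass and whole flies and 40 to 535 for carcass and tudor flies. Without a dye coefficient the 4 counts were 483, 427, 2646 and 23. With only the arrays compared, the carcass counts were 49 and 38, the carcass and tudor count was 0, and the carcass and whole-fly count was higher, at 5353. Scaling arrays to the same spread gave 1000 and 1942 for the differences with whole and tudor flies. Averaging arrays numbered alike gave 666 higher in male carcass and 53 differing from tudor flies. Array weights gave 676 and 74, and no block gave 82 for tudor flies. Testing only elements on all 4 arrays, which leaves fewer elements, gave 2790 for whole flies. The cause of these shifts was not tested. The 114 named genes kept their direction in every setting that gave a value, with 31 below the threshold without 4a and 75 with only the carcass arrays. Of the calls, 212 and 245 were made in all 13 settings that use the other arrays. List counts without 4a were added after seeing the data. No paired analysis was possible because the groups share no replicate numbers.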

Other observations

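Of 5 heat shock and stress genes on the array 3 were tested. Of these, 2 were called higher in female carcass (66.7%, beside 10.0% of all elements), both encoding small heat shock chaperones. Hsp26 had log2 ratios of 0.67, 0.51, 0.44 and 0.83 on arrays 3a, 3b, 4a and 4b (0.61 ± 0.11 SE, limma adjusted p 0.000123). Hsp27 had 0.80, 0.07, -0.03 and 0.45 (0.32 ± 0.10, limma adjusted p 0.0222), so the size varied between arrays. Both were less female-biased in carcass than in whole flies, by limma's test of the difference (-1.38 for Hsp26 and -0.85 for Hsp27). Hsp68 was at -0.07 in carcass and not called. In ovary over female carcass, Hsp26 was at 1.58, Hsp27 at 1.17 and Hsp68 at -0.99. The part of residual ovary tissue in their carcass ratios was not tested. Of 15 photoreceptor genes, 3 were called lower in female carcass (20.0%, beside 8.69% of all elements). They were Gbeta76C (-0.32), ninaB (-0.30) and rdgB (-0.18). Without 4a, 0 of 13 were called, where 2 had an unadjusted limma p below 0.05.

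Of 2147 tested elements without a gene in the platform annotation, 270 were called higher in female carcass (12.6%, beside 10.0% of all elements) and 117 in male carcass (5.45%, beside 8.69%). They are unnamed here.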
